A study of Homo sapiens with 4 samples.

Results

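The 10 genes described here mark or drive the mesenchymal state and were followed in 769-P, an established human renal clear cell carcinoma line: VIM, CDH2, FN1, S100A4, ACTA2, SNAI1, SNAI2, ZEB1, ZEB2 and TWIST1. They were chosen by gene name, and all 10 were found among the 58735 genes listed for each library. RNA was sequenced from cells given doxycycline at 1 µg/ml for 4 days (2 libraries) and from untreated cells, called control here (2 libraries). Every library came from the same line, with a stably transfected shRNA construct against the deubiquitylating enzyme USP35. The construct is induced by doxycycline, and all cells were kept in puromycin. Doxycycline without the hairpin was not analysed here, so an effect of the drug and of the hairpin cannot be told apart. Whether the replicates were grown as separate cultures is not stated, and p-values therefore reflect only how far these libraries differ, in part perhaps technically.

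Epithelial cells that enter the mesenchymal state lose cell-to-cell junctions and gain a motile shape, a programme known from development, wound repair and carcinoma. The transcription factors of the SNAI, ZEB and TWIST families drive it, in large part by repressing CDH1, the gene of the epithelial cadherin. Vimentin filaments, N-cadherin, a fibronectin matrix, the calcium-binding protein S100A4 and smooth muscle actin are the downstream markers most often read. Renal tubule cells are unusual among epithelia in that CDH2 is expressed already in the normal proximal tubule, and clear cell carcinoma lines commonly carry high vimentin.

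The hairpin's target, USP35, was at 2.11 and 2.54 FPKM in the doxycycline libraries and at 3.31 and 4.19 FPKM in the control libraries (limma adjusted p = 0.256). FPKM are fragments per kilobase of gene, scaled to library size, so levels can be set beside each other between genes. The libraries held between 16319640 and 18764546 reads. The share of mitochondrial reads was 7.44% and 14.6% in doxycycline replicates 1 and 2, against 8.21% and 8.50% in control replicates 1 and 2. Of 11 renal epithelial and clear cell carcinoma markers, 7 reached a mean of 1 FPKM. PAX8, the renal lineage factor, was at 49.4 and 38.5 FPKM with doxycycline and at 48.6 and 53.9 FPKM in controls, while the hypoxia targets CA9 and NDUFA4L2 stayed under 0.1 FPKM in every library. None of 10 fibroblast, 7 endothelial and 7 leukocyte markers reached that mean. The summed fibroblast markers came to 0.240 and 0.201 FPKM with doxycycline and to 0.820 and 0.726 FPKM in controls. COL1A1 made up 0.190 and 0.0779 FPKM of these sums with doxycycline and 0.680 and 0.632 FPKM in controls. THY1, LUM and DPT had 0 reads in all 4 libraries. So had PECAM1, CDH5 and KDR among the endothelial markers and CD3E and LYZ among the leukocyte markers.

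The mesenchymal genes spanned the whole range of expression, with structural genes at the top and most transcription factors at the bottom. ZEB1 stood above S100A4 in both doxycycline libraries and above ACTA2 in doxycycline replicate 2. FN1 and VIM were among the most abundant transcripts, CDH2 was high, ACTA2, S100A4 and ZEB1 were moderate, SNAI1, SNAI2 and ZEB2 were low and TWIST1 had no read. CDH1 had 0 reads in every library as well, which allows at most 0.0258 and 0.0265 FPKM with doxycycline and 0.0306 and 0.0279 FPKM in controls (3 reads, counting error only). None of the 7 genes that could be tested passed between doxycycline and control. SNAI1 and S100A4 had the lowest levels with doxycycline relative to control, at ratios of 0.249 and 0.452.

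**Figure D1:**
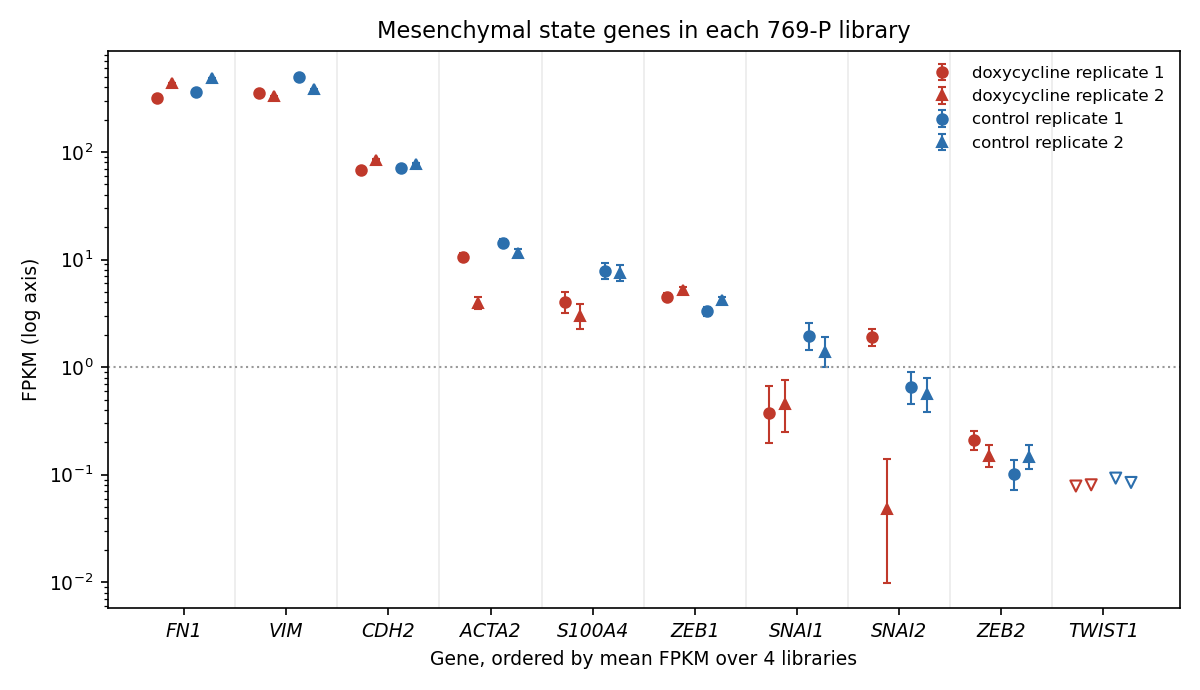
FPKM of each of the 10 genes (log axis) in doxycycline libraries (red) and control libraries (blue), circles for replicate 1 and triangles for replicate 2, with exact 95% Poisson intervals of the recovered reads. Open triangles for TWIST1 mark the limit that 0 reads allows, and the dotted line marks 1 FPKM. S100A4 and SNAI1 lie lower in both doxycycline libraries, while SNAI2 lies above the controls in one doxycycline library and below them in the other.

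Of the 10 genes, 7 reached a 4-library mean of 1 FPKM and entered the test, and SNAI2, ZEB2 and TWIST1 did not. SNAI1 (mean 1.04 FPKM) lay just inside that limit and SNAI2 (mean 0.789 FPKM) just outside. SNAI1 passed only through its controls, at a mean of 1.67 FPKM against 0.416 FPKM with doxycycline. A gene kept through its controls alone enters as lower, so SNAI1 is no support for a lower direction in the counts and median below. The test was limma-trend on log2(FPKM + 1), a scale that understates the change of low genes, with Benjamini-Hochberg adjustment over all 12029 genes kept. It called 0 of the 7 genes and 0% of all genes at an adjusted p under 0.05. Limma-voom on recovered reads also called 0 of the 7. It called 0% of all genes on library totals and 1.65% on median-of-ratios library sizes. At an unadjusted p under 0.05, 2 of the 7 were lower (S100A4 and SNAI1) and 0 were higher, where 11.9% of all genes were lower and 6.47% higher (18.3% in either direction). Both doxycycline libraries lay below both controls for 4 of the 7 (VIM, S100A4, SNAI1 and ACTA2), against 28.9% of all genes, and above both for 1 (ZEB1), against 24.3%. Groups without overlap in either direction were thus found for 5 of the 7 and for 53.2% of all genes. The median log2 difference, doxycycline minus control, was -0.36 over the 7 genes and -0.03 over all genes kept. Over all 10 genes on the same scale without the limit it was -0.08. With 1 doxycycline library left out, the other is assumed to vary like the controls, which alone give the spread, so a low p there says nothing of the spread between doxycycline libraries. In that form the test called 3 of the 7 lower without doxycycline replicate 1, where 19.9% of all genes were called lower, and 2 without doxycycline replicate 2, where 8.39% were. Without either control replicate it called 0 of the 7 and 0% of all genes. For one gene alone, an exact two-sided permutation test of 2 against 2 libraries gives no p under 0.333.

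The downstream structural genes FN1, VIM and CDH2 came first in abundance. FN1 encodes fibronectin, the matrix glycoprotein that integrins bind (ENSG00000115414, chromosome 2, 215360440 to 215436172, minus strand, GRCh38). It held 319 and 439 FPKM with doxycycline, against 361 and 487 FPKM in controls. The groups overlapped, and in each group replicate 2 was well above replicate 1. The log2 difference was -0.17, SE 0.30 (limma adjusted p = 0.794), and it became 0.04 under quantile normalization. Without doxycycline replicate 1 it was 0.07 and without control replicate 2 it was 0.05, so no direction can be given. FN1 rested on 99287 to 146974 reads per library, so counting error was small beside that spread.

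VIM encodes vimentin, the intermediate filament of mesenchymal cells (ENSG00000026025, chromosome 10, 17228259 to 17237593, plus strand). It held 351 and 328 FPKM with doxycycline, against 502 and 380 FPKM in controls. Both doxycycline libraries were lower than both controls, but the control libraries parted from each other by more than control replicate 2 parted from either doxycycline library. The mean was 339.5 ± 15.8 FPKM with doxycycline and 441 ± 86.1 FPKM in controls (SD, n = 2 each), a ratio of 0.769 that did not pass (limma adjusted p = 0.495). VIM-AS1, an antisense gene that shares 641 exonic bases with VIM (12.4% of its length), held 1.09 and 0.987 FPKM with doxycycline and 1.39 and 1.15 FPKM in controls. VIM ranked between 48 and 65 among all genes in every library. FN1 stood at 0.909 and 1.34 times the level of VIM with doxycycline and at 0.720 and 1.28 times in controls, so the order of these neighbours changed within each group.

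CDH2 encodes N-cadherin, the adhesion molecule that replaces E-cadherin in mesenchymal cells (ENSG00000170558, chromosome 18, 27950966 to 28177446, minus strand). It held 67.8 and 84.6 FPKM with doxycycline, against 71.2 and 77.1 FPKM in controls. Both control libraries lay between the doxycycline libraries. The means were 76.2 ± 11.9 FPKM with doxycycline and 74.2 ± 4.13 FPKM in controls (SD, n = 2 each), and the log2 difference was 0.03, SE 0.23 (limma adjusted p = 0.957). It was -0.03 after adjustment for gene length and GC content.

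S100A4, also called metastasin or fibroblast-specific protein, binds calcium and non-muscle myosin and is linked to motility (ENSG00000196154, chromosome 1, 153543613 to 153550136, minus strand). It held 4.00 and 2.98 FPKM with doxycycline, against 7.87 and 7.56 FPKM in controls. Both doxycycline libraries were lower than both controls by more than either group's libraries parted. The values rested on 77 and 56 reads with doxycycline and on 128 and 135 reads in controls, and the exact 95% Poisson intervals, which cover counting error only, reached up to 4.99 FPKM with doxycycline and down to 6.34 FPKM in controls. Means were 3.49 ± 0.716 FPKM with doxycycline and 7.72 ± 0.218 FPKM in controls (SD, n = 2 each), a ratio of 0.452. Its log2 difference of -0.97 (SE 0.19) missed the threshold over all genes (limma adjusted p = 0.0851, unadjusted p = 0.00240).

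S100A4 passed after adjustment for gene length and GC content (-0.81, limma adjusted p = 0.0467), where 2.07% of all genes were called lower. With the spread from the controls alone, its log2 difference was -1.13 without doxycycline replicate 1 (limma adjusted p = 6.19e-04) and -0.80 without doxycycline replicate 2 (limma adjusted p = 0.00696). Without control replicate 1 or 2 the limma adjusted p was 0.830 and 0.593, with log2 differences of -0.94 and -0.99. S100A3, a neighbour whose gene interval overlaps that of S100A4 on the same strand, shares 0 exonic bases with it. S100A3 held 5.46 and 2.06 FPKM with doxycycline and 9.83 and 6.97 FPKM in controls.

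The stretch upstream of the RefSeq start site of S100A4 is shown because it holds an E-box, the DNA word that SNAI and ZEB factors are known to bind. Letters are from RefSeq (GRCh38.p14), chr1:153545886-153546056, minus strand, 5′ to 3′, with CACCTG, the reverse complement of CAGGTG, in capitals.
S100A4: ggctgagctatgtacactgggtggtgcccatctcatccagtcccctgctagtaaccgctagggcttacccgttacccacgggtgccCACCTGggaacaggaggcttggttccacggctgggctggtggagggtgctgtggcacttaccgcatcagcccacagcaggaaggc
The word starts 164 bases before the start site. The letters shown are 171 of the 250 bases before that site, and the bases nearest to it are not printed. CAGGTG or CACCTG was searched on both strands in the 250 bases before each start site, and 17.5% of all 35116 windows held it. Of the 10 genes, 7 had an entry, with 15 windows, of which 3 held the word, in S100A4 and ZEB1. A match describes the letters and is not a bound site.

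ACTA2 encodes smooth muscle alpha-actin, the contractile actin of myofibroblasts (ENSG00000107796, chromosome 10, 88935074 to 88991339, minus strand). It held 10.5 and 3.96 FPKM with doxycycline, against 14.3 and 11.6 FPKM in controls. Both doxycycline libraries were lower than both controls, replicate 1 only narrowly and replicate 2 clearly. The doxycycline libraries parted from each other by 1.21 on the log2 scale, a gap that 4.07% of genes kept equalled or exceeded. Means were 7.24 ± 4.63 FPKM with doxycycline and 12.9 ± 1.94 FPKM in controls (SD, n = 2 each), a ratio of 0.559. The log2 difference was -0.88, SE 0.40 (limma adjusted p = 0.307). It was -1.48 without doxycycline replicate 1 (limma adjusted p = 2.46e-04) and -0.27 without doxycycline replicate 2 (limma adjusted p = 0.431), with the wide spread between these libraries left out of both p-values. Doxycycline replicate 2 also had the larger mitochondrial share, and with levels rescaled to reads outside mitochondrial genes the log2 difference was -0.84.

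The exons of ACTA2 share 380 bases, 12.8% of the gene's length, with exons of FAS, the death receptor gene on the plus strand, and strand use in counting is not given in the sources used here. FAS held 12.4 and 13.97 FPKM with doxycycline and 18.4 and 15.4 FPKM in controls, and ACTA2-AS1, which shares 516 bases, held 4 or 5 reads in each library. Some reads of the other muscle actins, ACTG2, ACTA1 and ACTC1, can be split with ACTA2 because the genes are similar in coding sequence. Reads counted for these other actins numbered between 0 and 9 in any library.

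The window before the inner ACTA2 start site is shown because it holds a pair of CArG boxes, the element through which serum response factor (SRF) is known to drive smooth muscle genes. Letters are from RefSeq (GRCh38.p14), chr10:88952774-88953023, minus strand, 5′ to 3′, with the elements in capitals, each carrying 1 C or G within its A and T centre.
ACTA2: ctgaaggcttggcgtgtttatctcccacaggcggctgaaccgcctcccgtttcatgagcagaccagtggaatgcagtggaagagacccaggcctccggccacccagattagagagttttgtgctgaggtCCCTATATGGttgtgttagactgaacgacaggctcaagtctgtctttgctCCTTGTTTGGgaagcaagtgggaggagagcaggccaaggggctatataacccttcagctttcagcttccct
The element in this form was found in 5.96% of all windows, and in 1 of the 15 windows of the mesenchymal genes. The strict form, with A and T alone in the centre, was found in 1.16% of all windows and in 0 of the 15.

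**Figure D2:**
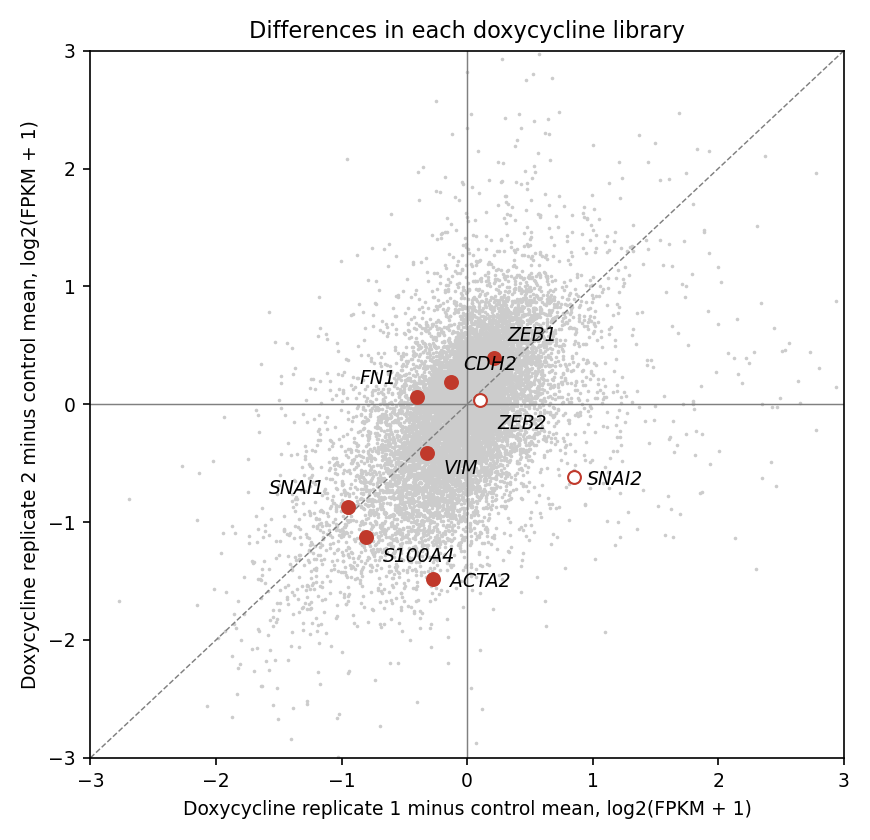
Difference from the control mean on the log2(FPKM + 1) scale in doxycycline replicate 1 (horizontal axis) and replicate 2 (vertical axis) for the 12029 genes kept (grey, 35 of them outside the axes) and for the mesenchymal genes (red, open where the mean was under 1 FPKM, TWIST1 left out). SNAI1, S100A4 and VIM lie near the dashed line of equal differences in the lower left, ACTA2 lies far below it and SNAI2 lies in opposite directions in the 2 libraries.

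Among the transcription factors, SNAI1 stood lowest with doxycycline relative to control and ZEB1 stood higher. SNAI1 encodes Snail, a zinc finger repressor of CDH1 (ENSG00000124216, chromosome 20, 49982999 to 49988886, plus strand). It held 0.379 and 0.453 FPKM with doxycycline, against 1.94 and 1.40 FPKM in controls. The groups were well apart for so low a gene. These values rested on 12 and 14 reads with doxycycline and on 52 and 41 reads in controls, with exact 95% Poisson intervals of at most 0.761 FPKM with doxycycline and at least 1.00 FPKM in controls. Means were 0.416 ± 0.0529 FPKM with doxycycline and 1.67 ± 0.387 FPKM in controls (SD, n = 2 each), a ratio of 0.249.

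SNAI1 had a log2 difference of -0.91 (SE 0.24), short of the threshold over all genes (limma adjusted p = 0.145, unadjusted p = 0.00856). With a pseudocount of 0.1 FPKM in place of 1 it was -1.76, and limma-voom on recovered reads gave -1.90 and -1.94. With the spread from the controls alone it was -0.87 without doxycycline replicate 1 (limma adjusted p = 0.0161) and -0.95 without doxycycline replicate 2 (limma adjusted p = 0.0222). Without control replicate 1 or 2 the limma adjusted p was 0.952 and 0.610.

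SNAI2 encodes Slug, the sister repressor (ENSG00000019549, chromosome 8, 48917604 to 48921740, minus strand). It held 1.90 FPKM in doxycycline replicate 1 and 0.0483 FPKM in doxycycline replicate 2, against 0.650 and 0.559 FPKM in controls. The doxycycline libraries lay on opposite sides of the controls, and the control libraries nearly coincided. The values rested on 121 and 3 reads with doxycycline and on 35 and 33 reads in controls. The exact 95% Poisson intervals were 1.57 to 2.27 FPKM and 0.00996 to 0.141 FPKM in doxycycline replicates 1 and 2, and neither reached the control levels. SNAI2 was below the expression limit. Tested with that limit lifted, its log2 difference was 0.12, SE 0.55 (limma adjusted p = 0.938), and with a pseudocount of 0.1 FPKM the difference was -0.37. It parted the doxycycline libraries while SNAI1, its closest relative here, did not.

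ZEB1 encodes a zinc finger and homeodomain repressor that also silences CDH1 (ENSG00000148516, chromosome 10, 31318495 to 31529814, plus strand). It held 4.50 and 5.21 FPKM with doxycycline, against 3.30 and 4.19 FPKM in controls. Both doxycycline libraries were higher than both controls, by less than the controls parted from each other for the nearest pair. Means were 4.85 ± 0.504 FPKM with doxycycline and 3.74 ± 0.628 FPKM in controls (SD, n = 2 each), and the log2 difference was 0.31, SE 0.19 (limma adjusted p = 0.432). ZEB1 made up most of the summed FPKM of the 5 transcription factors, 64.4% and 88.9% with doxycycline and 55.1% and 66.6% in controls.

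ZEB1-AS1, the antisense gene that shares 366 exonic bases with ZEB1 (4.23% of its length), held 3.26 and 4.05 FPKM with doxycycline and 2.63 and 2.23 FPKM in controls (limma adjusted p = 0.298). Without strand, reads of the 2 genes cannot be told apart where they overlap. The 250 bases before the outermost ZEB1 start site are shown because they too hold the E-box and overlap exons of ZEB1-AS1. Letters are from RefSeq (GRCh38.p14), chr10:31318167-31318416, plus strand, 5′ to 3′, with CAGGTG in capitals.
ZEB1: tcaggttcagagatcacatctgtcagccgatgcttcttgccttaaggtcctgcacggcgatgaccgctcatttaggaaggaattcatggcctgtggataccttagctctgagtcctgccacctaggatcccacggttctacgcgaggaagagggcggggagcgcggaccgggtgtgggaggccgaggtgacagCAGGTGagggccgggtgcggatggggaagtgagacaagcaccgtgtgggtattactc
The word starts 57 bases before the start site.

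ZEB2, the relative of ZEB1 (ENSG00000169554), is on chromosome 2 (144364364 to 144524583, minus strand). It held 0.208 and 0.150 FPKM with doxycycline, against 0.101 and 0.147 FPKM in controls. Doxycycline replicate 2 and control replicate 2 nearly coincided, at 69 and 64 reads, and the exact 95% Poisson intervals of doxycycline replicate 2 and of both controls overlapped. With the expression limit lifted, the log2 difference was 0.07, SE 0.06 (limma adjusted p = 0.661). ZEB2-AS1, which overlaps ZEB2 on the other strand, had 3 reads in doxycycline replicate 1 and 0 in each other library. TWIST1, a basic helix-loop-helix factor (ENSG00000122691, chromosome 7, 19020991 to 19117672, minus strand), had 0 reads in every library. That allows at most 0.0785 and 0.0806 FPKM with doxycycline and 0.0930 and 0.0847 FPKM in controls (3 reads).

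**Figure D3:**
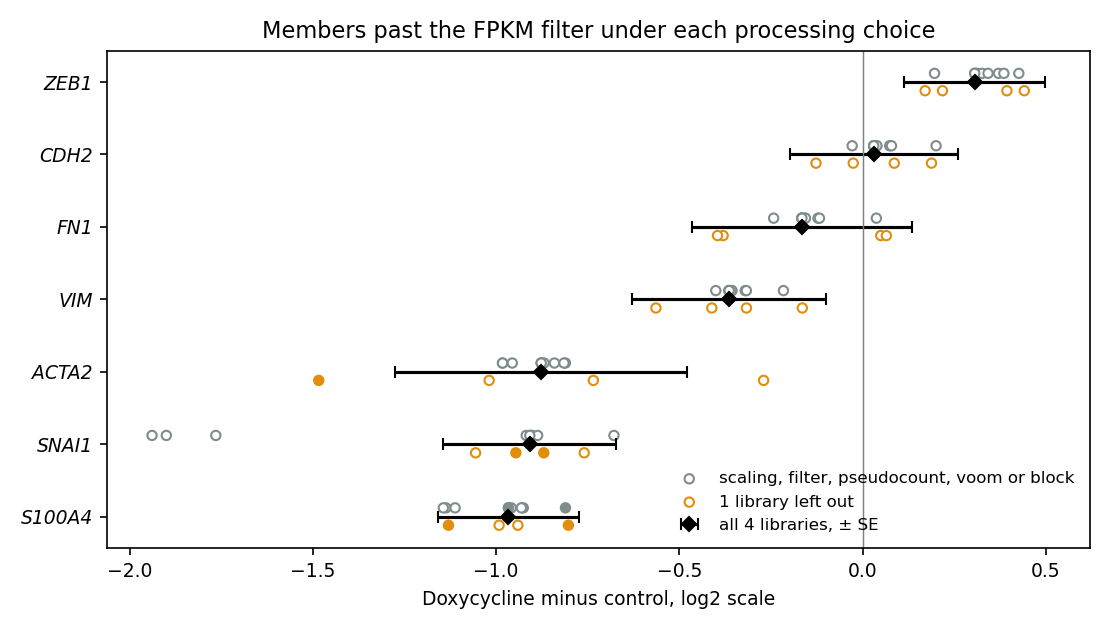
Log2 difference, doxycycline minus control, of the 7 genes tested: black diamonds with standard errors for all 4 libraries, grey circles for other scalings, filters, pseudocounts and models, and orange circles with 1 library left out. Filled circles have a limma adjusted p under 0.05. S100A4, SNAI1, ACTA2 and VIM stay below 0 and ZEB1 above 0 throughout, while CDH2 and FN1 lie on both sides.

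Related gene lists place the 10 genes in their pathways. Each list is described by counts, since none of its members passed limma over all genes. The shares of all genes given above (11.9% lower and 6.47% higher at an unadjusted p under 0.05, 28.9% below and 24.3% above without overlap) are the background for the counts of the same kind below.

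Around ACTA2, most actin genes had lower values with doxycycline, though none passed the test. Of 25 actin, actin-binding and SRF pathway genes, 19 were tested, and all 19 had a log2 difference below 0, against 52.4% of all genes. TAGLN, at 1.45 and 0.265 FPKM with doxycycline and 1.67 and 1.33 FPKM in controls, reached a mean of 1 FPKM only through its controls. It is therefore no support for a lower direction in the counts and median of this list. Both doxycycline libraries lay below both controls for 15 of the 19 and above both for 0, and 12 were lower at an unadjusted p under 0.05. The median over the list was -0.73 (log2 difference), made up of -0.56 in doxycycline replicate 1 and -0.94 in doxycycline replicate 2. It stayed between -0.94 and -0.56 under the other processing choices tried. With the spread from the controls alone, 14 of the 19 were called lower without doxycycline replicate 1 (19.9% of all genes) and 5 without doxycycline replicate 2 (8.39% of all genes). Without either control replicate, 0 of the 19 were called. TAGLN, CNN3, MYH9 and MRTFB, the genes whose groups overlapped, include MRTFB at -0.05 (limma adjusted p = 0.928).

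CNN2, calponin 2, held 49.4 and 30.7 FPKM with doxycycline, against 102 and 89.6 FPKM in controls (limma adjusted p = 0.111). TPM4, tropomyosin 4, held 50.1 and 36.7 FPKM with doxycycline, against 100.4 and 88.3 FPKM in controls (limma adjusted p = 0.107). Of genes chosen after their values were seen, SRF itself held 11.8 and 8.32 FPKM with doxycycline, against 21.9 and 18.6 FPKM in controls (limma adjusted p = 0.129). Its co-activator MRTFA held 6.03 and 4.50 FPKM with doxycycline, against 9.11 and 9.57 FPKM in controls (limma adjusted p = 0.156). MYOCD, the muscle-restricted co-activator, had 1 read in all 4 libraries together. Some reads of ACTB and ACTG1, which are similar in coding sequence, can be split between them. Both genes, also chosen after their values were seen, were lower in both doxycycline libraries.

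**Figure D4:**
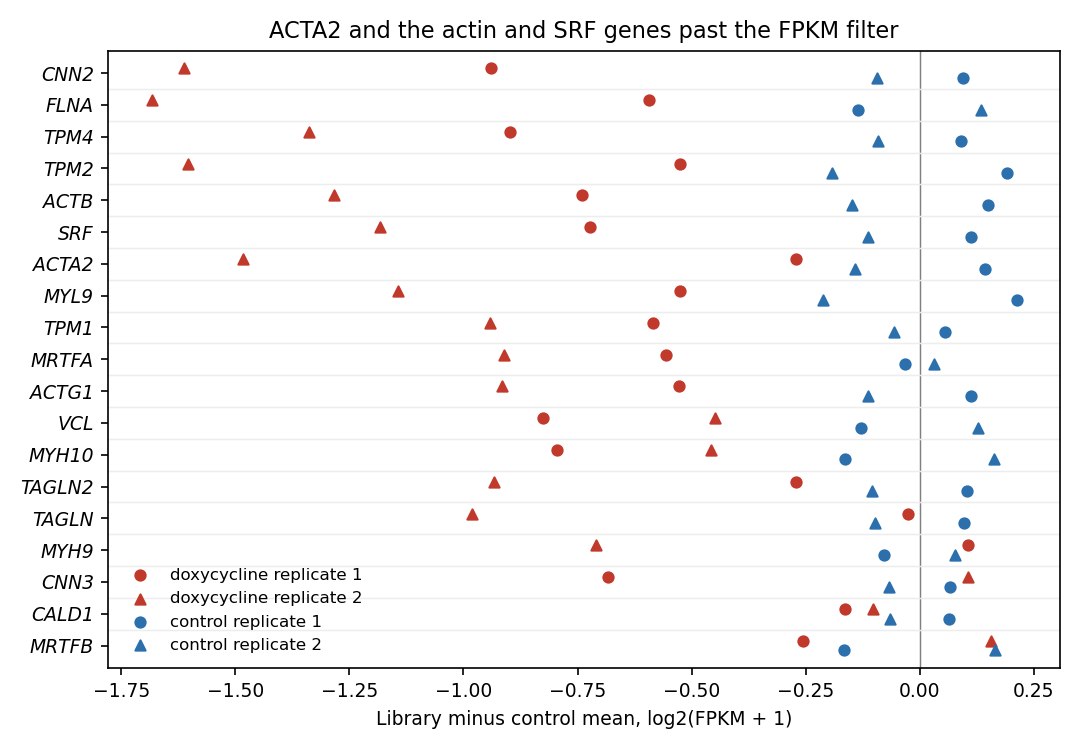
Each library minus the control mean on the log2(FPKM + 1) scale for the 19 tested genes of the actin and SRF list, with doxycycline in red above control in blue within each row, circles for replicate 1 and triangles for replicate 2. For 15 genes both red points lie left of both blue points, and for FLNA, ACTA2, TPM2, TAGLN and MYH9 doxycycline replicate 2 lies well left of replicate 1.

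Other regulators of the mesenchymal state mostly stood lower with doxycycline. Of 16 further transcription factors, 10 were tested, 7 lay below both controls in both doxycycline libraries and 1 above, and the median log2 difference was -0.44. FOXC2, a forkhead factor linked to the mesenchymal state, held 6.48 and 3.35 FPKM with doxycycline, against 29.4 and 23.6 FPKM in controls (limma adjusted p = 0.0573). TCF3, which encodes the E-box factors E12 and E47, held 29.3 and 16.6 FPKM with doxycycline, against 40.0 and 39.0 FPKM in controls (limma adjusted p = 0.239). SOX4 went the other way, at 39.2 and 50.6 FPKM with doxycycline, against 21.2 and 26.8 FPKM in controls (limma adjusted p = 0.158).

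Most epithelial genes that oppose the state were nearly silent. Of 15, 12 averaged under 1 FPKM, among them CDH1, GRHL3 and RAB25 at 0 reads, and the median of the 3 tested was 0.13 (log2 difference) with 1 above both controls. ELF3, an epithelial ETS factor, held 8.72 and 10.0 FPKM with doxycycline, against 2.78 and 4.19 FPKM in controls (limma adjusted p = 0.0727). CDS1 held 2.34 and 3.39 FPKM with doxycycline and 2.50 and 2.47 FPKM in controls, which overlap (limma adjusted p = 0.757). KLF4, an epithelial zinc finger factor chosen after its values were seen, held 15.5 and 2.25 FPKM with doxycycline, on either side of the 6.70 and 5.52 FPKM in controls.

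TGF-beta, the best known inducer of the mesenchymal state, was followed through ligands, receptors, SMADs and response genes. Of 18 ligand, receptor and SMAD genes, 12 were tested, with 6 below and 3 above both controls and a median log2 difference of -0.21. TGFB1, the main ligand, held 31.2 and 24.2 FPKM with doxycycline, against 55.1 and 50.9 FPKM in controls (limma adjusted p = 0.128). LTBP1, which anchors the latent ligand, held 1.10 and 1.12 FPKM with doxycycline, against 1.75 and 2.09 FPKM in controls (limma adjusted p = 0.296). The receptor genes TGFBR1 and ACVR1B had log2 differences of 0.24 and 0.23 (limma adjusted p = 0.489 and 0.531).

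The 9 response genes tested, of 12, had a median log2 difference of -0.43, with 3 below and 1 above both controls. TAGLN, kept through its controls alone, is among the 9 and is no support for a lower direction in that median. Doxycycline replicate 1 had a median of 0.03 and doxycycline replicate 2 of -0.73, so the list parted these libraries. JUNB, an AP-1 subunit, held 24.5 and 14.2 FPKM with doxycycline, against 73.9 and 61.5 FPKM in controls (limma adjusted p = 0.0692). PMEPA1, a feedback inhibitor of the pathway, held 50.8 and 16.02 FPKM with doxycycline, against 113 and 95.7 FPKM in controls (limma adjusted p = 0.164). BHLHE40 and TGFBI had log2 differences of 0.30 and 0.04 (limma adjusted p = 0.474 and 0.958).

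The families of the structural genes were described in the same way. Of 14 cadherins and catenins, 8 were tested, with a median log2 difference of -0.16 and 3 below and 1 above both controls. CDH4, R-cadherin, held 0.789 and 0.468 FPKM with doxycycline, against 1.90 and 1.27 FPKM in controls (limma adjusted p = 0.251). Like SNAI1, CDH4 passed the limit of 1 FPKM only through its controls (mean 1.58 FPKM, against 0.628 FPKM with doxycycline). It is therefore no support for a lower direction in the counts and median of this list. The catenins CTNNB1 and CTNND1 had log2 differences of -0.32 and 0.27 (limma adjusted p = 0.423 and 0.553). Of 15 intermediate filament, lamin and linker genes with VIM, 11 were tested and 7 lay below both controls, with a median of -0.88. Doxycycline replicate 1 had a median of -0.25 and doxycycline replicate 2 of -1.35.

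LMNB1, lamin B1 of the nuclear envelope, held 19.4 and 20.3 FPKM with doxycycline, against 56.4 and 50.6 FPKM in controls (limma adjusted p = 0.0573). LMNB2 held 33.6 and 24.6 FPKM with doxycycline, against 83.2 and 78.4 FPKM in controls (limma adjusted p = 0.0682). SYNM, an intermediate filament protein that links to the cytoskeleton, had a log2 difference of 0.12 (limma adjusted p = 0.733). VIM, at -0.36, lay nearer 0 than the list's median.

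Fibronectin receptors and partners counted 12 tested of 19, FN1 included, with 5 below and 1 above both controls and a median log2 difference of -0.29. FBLN1 and ITGB3 had log2 differences of -1.49 and -0.75 (limma adjusted p = 0.0573 and 0.225). ITGB8, an integrin subunit that activates latent TGF-beta, held 1.68 and 7.24 FPKM with doxycycline, against 0.927 and 1.55 FPKM in controls (limma adjusted p = 0.323), and SDC4, a fibronectin co-receptor, had a log2 difference of 0.34 (limma adjusted p = 0.538).

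Of 19 S100 genes, 9 were tested and 5 lay below both controls and 0 above, with a median log2 difference of -0.32. S100A4 had the lowest p of them, followed by S100A3 (limma adjusted p = 0.226), and S100A1 had a log2 difference of 0.19 (limma adjusted p = 0.633). The abundant S100A6 and S100A11, chosen after their values were seen, had log2 differences of -0.09 and -0.14. S100A4 was thus a minor S100 transcript, at 4.00 and 2.98 FPKM beside 323 and 248 FPKM of S100A6 in the doxycycline libraries.

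Of 30 further mesenchymal markers, 13 were tested, 7 lay below both controls and 2 above, and the median log2 difference was -0.67. AXL, a receptor kinase, held 52.1 and 31.8 FPKM with doxycycline, against 131 and 120.1 FPKM in controls (limma adjusted p = 0.0747). CD44, the hyaluronan receptor, held 31.2 and 28.4 FPKM with doxycycline, against 68.3 and 60.9 FPKM in controls (limma adjusted p = 0.0795). GNG11 and MMP14 lay above both controls, with log2 differences of 0.27 and 0.19 (limma adjusted p = 0.516 and 0.614).

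**Figure D5:**
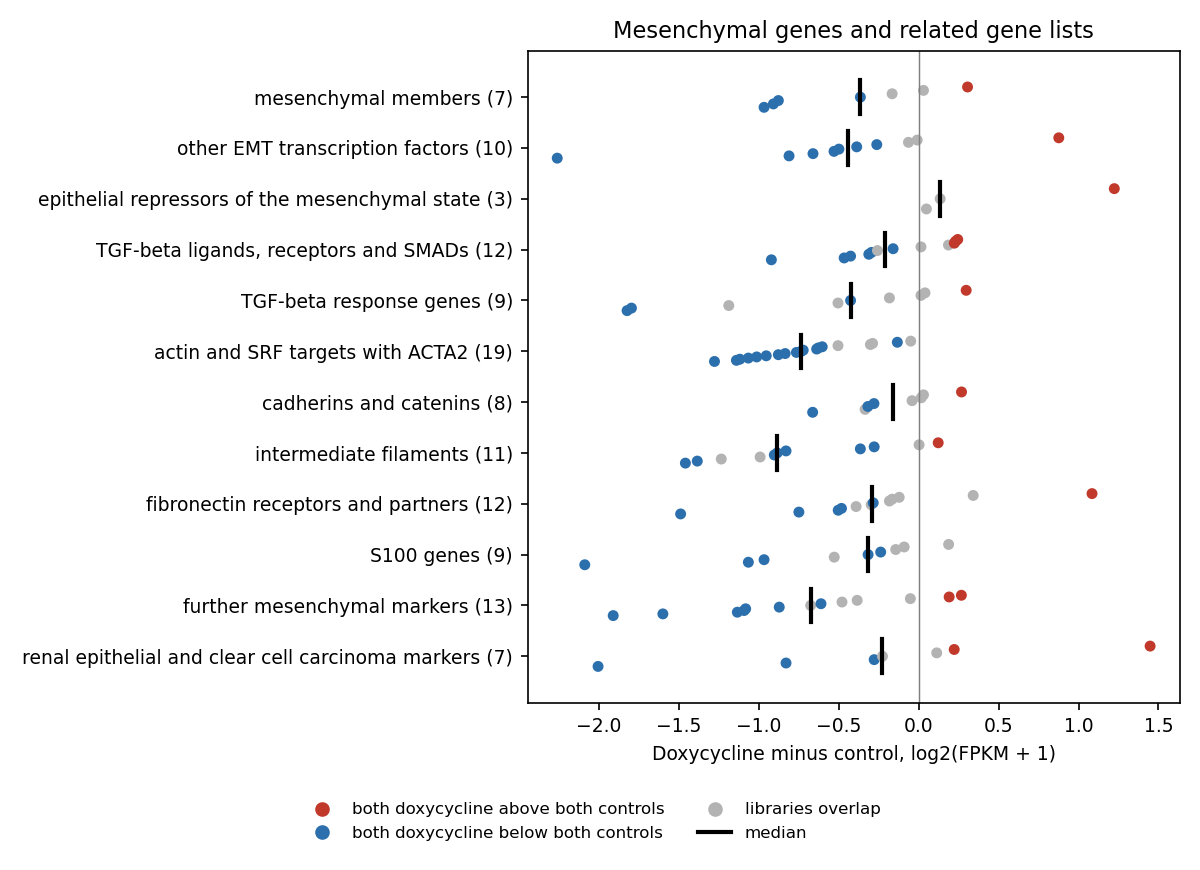
Doxycycline minus control difference in log2(FPKM + 1) for every tested gene of each list, with the number tested in brackets. Red points have both doxycycline libraries above both controls, blue points below, grey points overlap, and black bars are medians. The actin and SRF list holds 0 red points, and the 7 mesenchymal state genes in the top row have a median of -0.36.

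Among the renal markers the named genes by p were LHX1 and KRT18, with log2 differences of -2.00 and -0.83 (limma adjusted p = 0.0573 and 0.148), and EPAS1 and PAX2, with 1.45 and 0.22 (limma adjusted p = 0.0731 and 0.513). The list's median was -0.23, with 3 of 7 below and 2 of 7 above both controls.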

How the data were processed

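The 4 libraries came as 1 table each, with values deposited as FPKM per the file headers. The submitters' processing notes list the tools featureCounts 1.5.0-p3, HISAT2 2.0.5 and limma, without saying what each did. The sources used here give no genome build, strand setting or filter. Identifiers, coordinates and strands of all 58735 genes equalled GENCODE release 29 (GRCh38), which was used for annotation. Groups and replicate numbers are from the labels. FPKM times gene length was a whole number of equal steps in 100% of genes (tolerance 0.02 reads), which gave reads and depth; the library sizes behind FPKM were 97.2% to 107.5% of those reads. The 12029 genes averaging 1 FPKM or more were tested with limma 3.58.1 (R 4.3.3) on log2(FPKM + 1), trended, two-sided, no covariate, 2 doxycycline against 2 control libraries. Steps were tested on simulated data. Tables were handled with scipy 1.17.1, numpy 2.4.6 and pandas 2.3.3 under Python 3.11.15, and figures with matplotlib 3.10.9.

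The 10 genes and all lists were chosen with earlier results of these data known. Besides the 10 genes and USP35, named genes are those that overlap them and, per list, up to 2 with the lowest p in each direction; PAX8, CA9, NDUFA4L2, CDH1 and markers given as at 0 reads were picked with their values in view. A gene that this rule names among the intermediate filament genes is not reported here. Alternatives covered pseudocount, filter, scaling, GC content and length, limma-voom, a replicate block and each library left out.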

Additional observations from a re-analysis of the deposited data

How the results depend on the processing

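The depth limits SNAI1, SNAI2, ZEB2 and TWIST1 most, with between 0 and 121 reads per library. Over all genes, 0 passed with all 4 libraries (2204 at an unadjusted p under 0.05), 261 with a mean of at least 5 FPKM, 300 after adjustment for gene length and GC content, 198 with limma-voom on median-of-ratios library sizes and between 0 and 3942 with 1 library left out (3942 without doxycycline replicate 1, 1605 without doxycycline replicate 2, 0 without either control). Of the mesenchymal genes, 0 passed with all 4 libraries, 1 (S100A4) after that adjustment, and between 0 and 3 with 1 library left out (3 without doxycycline replicate 1, 2 without doxycycline replicate 2, 0 without either control), where 32.8%, 13.3% and 0% of all genes passed. Leaving out a doxycycline library takes the spread from the controls alone. Their median log2 difference was -0.36, -0.22 under quantile normalization and between -0.56 and -0.32 with 1 library left out. Without the filter it was -0.17 over 9 genes, TWIST1 with 0 reads being left out, and -0.08 with TWIST1 counted as 0. CDH2 (0.03) became -0.028 after adjustment for length and GC content and lay between -0.13 and 0.19 with 1 library left out, and FN1 (-0.17) became 0.038 under quantile normalization and lay between -0.40 and 0.065. VIM, S100A4, SNAI1, ACTA2 and ZEB1 kept their direction in every alternative in which they were tested, while SNAI2, below the filter, had 0.12 and, with a pseudocount of 0.1 FPKM, -0.37. The cause of these changes was not tested.

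The replicate numbers are shared by both groups, but nothing in the labels says that they pair libraries. Deviations of same-numbered libraries correlated at 0.207 across 12029 genes. With the replicate block, 784 genes (6.52%) and 1 mesenchymal gene (S100A4, limma adjusted p = 0.0244) passed. Called lower were 5 of 19 actin genes, 3 of 9 S100 genes and 5 of 13 further markers, against 4.84% of all genes. So were 2 of 9 TGF-beta response genes, 2 of 11 intermediate filament genes and 1 of 12 in the TGF-beta ligand and fibronectin lists each. For other transcription factors it was 1 of 10, for renal markers 1 of 7, and for cadherins and catenins 0 of 8. Called higher were 1 of 10 other transcription factors, 1 of 3 epithelial genes and 1 of 7 renal markers, and 202 of all genes.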
